A study of Mus musculus with 8 samples.

Results

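Matrix metalloproteinases (MMPs) are zinc-dependent enzymes that cut collagens, proteoglycans and other proteins outside the cell, and tissue inhibitors of metalloproteinases (TIMPs) are the secreted proteins that bind and block them. Here 10 of these genes are described, 6 MMP genes (Mmp2, Mmp3, Mmp11, Mmp13, Mmp14 and Mmp19) and the 4 TIMP genes (Timp1, Timp2, Timp3 and Timp4). They were taken by symbol from a deposited RNA-seq table of 24015 genes. Mmp3 and Mmp13 lie on chromosome 9, Mmp11, Mmp19 and Timp3 on 10, Mmp2 on 8, Mmp14 on 14, Timp1 on X, Timp2 on 11 and Timp4 on 6. The cells were cardiac fibroblasts from wild type C57BL/6J mice aged 8 weeks. Total RNA was sequenced before any differentiation medium was given (day 0) and after 7, 14 and 21 days in a medium that induces osteogenic differentiation, 2 libraries per time and 8 in total. The sources used here do not name the components of the medium. The sources describe no cells cultured for these times without the medium, so the medium and time in culture cannot be told apart in any difference from day 0. The labels leave unsaid whether the 2 libraries of each time are separate cultures or animals, so a p-value here reflects the spread among these libraries alone.

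Values are normalized counts, the reads of a gene divided by 1 size factor per library, and the libraries held 13399313 to 21883498 reads on genes. A gene was tested where at least 2 of the 8 libraries reached 10 normalized counts, which kept 13527 genes and 9 of the 10 members. Mmp13 had 40 reads in all 8 libraries together and was not tested. A gene is called where its adjusted p (limma on log2 of the value plus 1, Benjamini-Hochberg over all 13527 genes) is below 0.05. None of the 10 fibroblast markers examined was at 0 at any time, and their summed level was 712490 to 719123 at day 0, 481582 to 507586 at day 7, 322572 to 366908 at day 14 and 471493 to 539298 at day 21. Col1a1 alone went from 249947 to 68602, 22417.5 and 54047. At day 21 against day 0, 5 of the 10 were called higher, among them Pdgfra, Tcf21, Dcn and Lum, and 3 lower. Of all tested genes, 29.8% were called higher and 29.5% lower. The heart muscle gene Myh6 and the bone-forming cell genes Sp7 and Ibsp were at 0 reads at every time, whereas the heart muscle gene Tnnt2 had means of 1170.3, 11409, 25595 and 8215 and the bone-forming cell gene Runx2 was above 0 throughout.

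Most MMPs are secreted as inactive proenzymes that another protease must cut. Mmp14 instead sits in the cell membrane, and together with Timp2, which bridges both proteins, it activates the Mmp2 proenzyme at the cell surface, so that Timp2 is both an inhibitor and a part of the activating complex. The TIMPs overlap in their targets but differ in where they act: Timp3 binds to the matrix and also blocks several ADAM and ADAMTS proteases, while the others are soluble. In the heart, fibroblasts are a main source of these enzymes and inhibitors, and their balance is known for its part in the remodelling of scar and matrix.

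Sequences just before the start site are shown for the MMP member that changed most (Mmp3), for the gene with the most similar course (Mmp10), for a gene of the same chromosomal cluster that stayed near 0 (Mmp13) and for TIMP genes that went opposite ways in the first week (Timp2 and Timp3). RefSeq (GRCm38.p6) gave a window for 8 of the 10 members, and Mmp2 and Mmp19 had none. Each sequence is the 250 bases before the RefSeq start, 5′ to 3′ on the gene's own strand. Capitals mark matches to TGANTCA (the AP-1 motif, bound by Fos and Jun dimers), TATAAA (the TATA box) and GGGCGG (the GC box, bound by Sp1), each searched on both strands. The windows lie at chr9:7445572-7445821 (plus strand) for Mmp3, chr9:7502092-7502341 (plus) for Mmp10, chr9:7272264-7272513 (plus) for Mmp13, chr11:118355412-118355661 (minus) for Timp2 and chr10:86300162-86300411 (plus) for Timp3.
Mmp3: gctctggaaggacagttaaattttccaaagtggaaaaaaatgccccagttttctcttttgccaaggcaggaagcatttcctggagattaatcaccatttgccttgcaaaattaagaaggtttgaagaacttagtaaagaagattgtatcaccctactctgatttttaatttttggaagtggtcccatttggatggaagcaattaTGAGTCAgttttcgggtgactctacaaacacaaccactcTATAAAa
Mmp10: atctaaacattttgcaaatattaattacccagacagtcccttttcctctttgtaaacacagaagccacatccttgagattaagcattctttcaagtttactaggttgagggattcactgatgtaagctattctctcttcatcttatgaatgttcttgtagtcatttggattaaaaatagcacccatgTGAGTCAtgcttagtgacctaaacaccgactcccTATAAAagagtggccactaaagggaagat
Mmp13: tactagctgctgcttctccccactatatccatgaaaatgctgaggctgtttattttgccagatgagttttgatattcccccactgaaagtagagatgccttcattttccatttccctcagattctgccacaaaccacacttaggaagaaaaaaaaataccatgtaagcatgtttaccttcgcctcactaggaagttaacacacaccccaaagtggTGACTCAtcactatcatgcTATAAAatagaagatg
Timp2: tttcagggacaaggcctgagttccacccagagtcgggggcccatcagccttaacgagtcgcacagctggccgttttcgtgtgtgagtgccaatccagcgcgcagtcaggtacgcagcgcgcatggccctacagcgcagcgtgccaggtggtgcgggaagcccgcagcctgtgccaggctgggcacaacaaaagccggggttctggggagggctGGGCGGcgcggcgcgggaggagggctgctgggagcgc
Timp3: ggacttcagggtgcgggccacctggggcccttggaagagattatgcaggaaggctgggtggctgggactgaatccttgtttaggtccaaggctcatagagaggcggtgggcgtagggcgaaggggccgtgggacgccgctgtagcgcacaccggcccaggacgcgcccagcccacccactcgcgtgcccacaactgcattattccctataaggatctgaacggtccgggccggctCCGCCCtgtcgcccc

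Mmp3 and Mmp13 each held 1 AP-1 motif, with its first base at -46 and -35 from the start, and 1 TATA box, at -7 and -16. Mmp10 had the same pair of motifs at -63 and -29. In the same chromosomal cluster, windows of Mmp1a, Mmp1b, Mmp7 and Mmp20 also held both motifs. A window of Mmp12 held the AP-1 motif alone, and those of Mmp8 and Mmp27 held neither. No other member window held either motif, and 6.7% of all 32851 windows of this length held the AP-1 motif and 12.4% the TATA box. GC boxes were found in 5 members (Mmp11, Mmp14, Timp1, Timp2 and Timp3) and in 32.7% of all windows. The bases just after the RefSeq start of Mmp14 were not found in an annotated Mmp14 transcript. Those of the other member windows were found in theirs. The Timp4 window held none of the 3 motifs. The GC content of the windows was 37.6% in Mmp3, 37.2% in Mmp10 and 40.4% in Mmp13 against 68.0% in Timp2 and 65.6% in Timp3, around a median of 52.4% over all windows. These matches describe the letters only: Mmp3 and Mmp13 held the same 2 motifs, and at day 14 they had 45382 and 2.75 normalized counts per kilobase of exon.

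In the first week Mmp3 rose 8.27-fold, Mmp2, Mmp19 and Timp2 rose by less than 2-fold, and Timp4 went from 0 reads to a low level. Timp1 and Timp3 fell 3.38-fold and 2.60-fold, and Mmp14 and Mmp11 were not called. That is 7 of 9 members called at day 7 against day 0, 5 higher and 2 lower, where 55.4% of all tested genes were called (27.5% higher, 27.9% lower). In the second week (day 14 against day 7) 8 were called, 3 higher and 5 lower, against 52.0% of all genes (25.0% higher, 27.0% lower). In the third week (day 21 against day 14) 5 were called, 4 higher and 1 lower, against 34.5% of all genes (20.2% higher, 14.3% lower). Over the whole course (day 21 against day 0) all 9 tested members were called, 6 higher and 3 lower, against 59.4% of all genes (29.8% higher, 29.5% lower). For day 14 against day 0 the count was 7, with 4 higher and 3 lower, against 70.7% (35.2% higher, 35.6% lower). For day 21 against day 7 it was 3, all higher, against 8.74% (5.46% higher, 3.28% lower). Timp4 passed the filter on low values through its later libraries alone and so had to differ from day 0, and its calls there are no support for these counts. The median log2 difference of the 9 members was 0.45 at day 7 against day 0, -0.35 at day 14 against day 7, 0.28 at day 21 against day 14 and 0.61 at day 21 against day 0, beside -0.01, 0, 0.02 and 0 over all tested genes. These medians were the same with Timp4 at its lower bound against day 0.

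**Figure D1:**
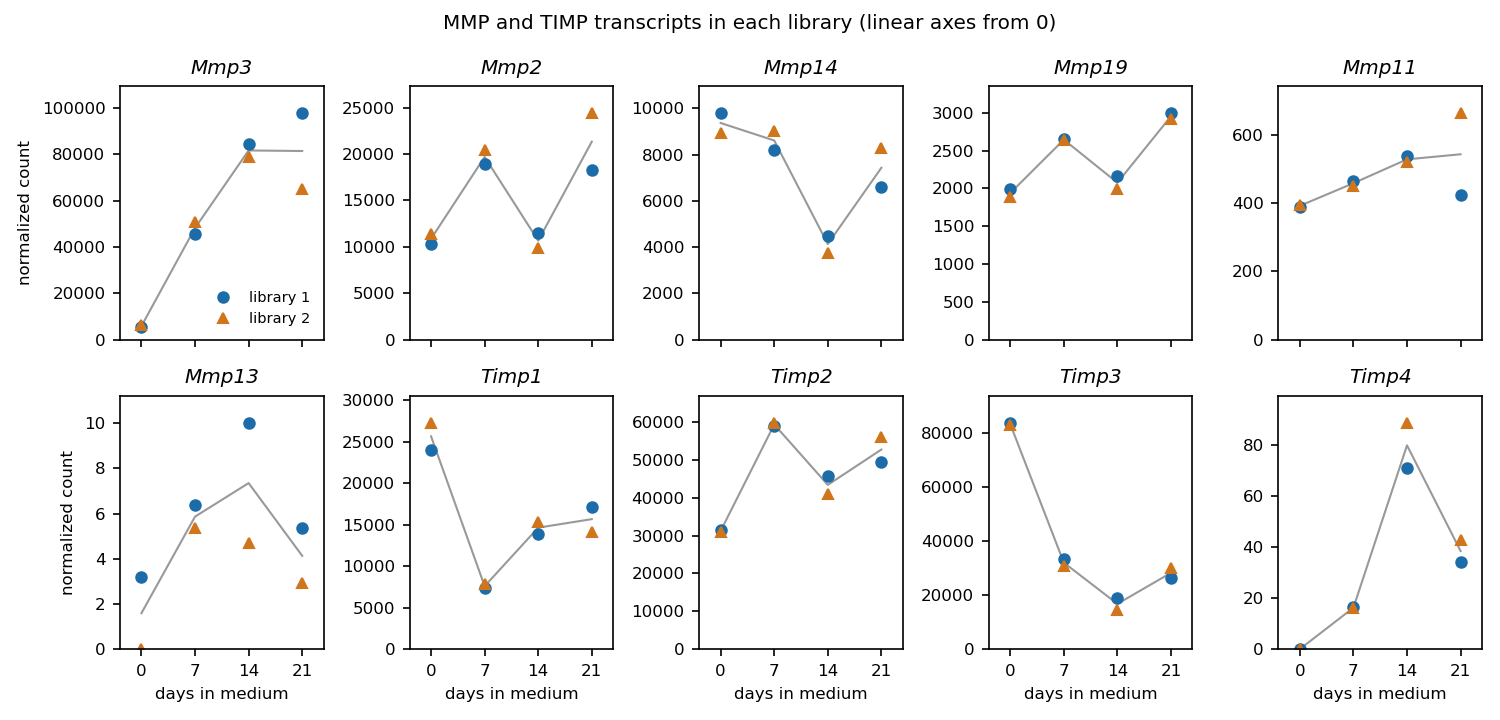
Normalized counts (linear axes from 0) of the 10 members against days in the medium; circles are library 1, triangles library 2, and lines join the means of the 2 libraries. Mmp3 climbs from 5309.7 and 6350.2 on day 0 to 65141 or more in each library of days 14 and 21, Timp3 runs the other way, and Mmp2, Mmp14 and Mmp19 dip at day 14.

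Mmp3, stromelysin-1, cuts proteoglycans, laminin, fibronectin and the proenzymes of other MMPs. It had 5309.7 and 6350.2 normalized counts in the 2 libraries of day 0, 45578 and 50862 on day 7, 84572 and 78893 on day 14 and 97857 and 65141 on day 21. Both day 0 libraries were low, no later library came near them, and the 2 libraries of day 21 lay further apart than those of any other time and spanned those of day 14. The mean of day 7 was 8.27-fold that of day 0 (log2 3.05 ± 0.17 SE, adjusted p = 2.58e-08), and those of days 14 and 21 were 14.0-fold (log2 3.81, adjusted p = 1.95e-09, and log2 3.78, adjusted p = 2.57e-09). From day 7 to day 14 the mean rose 1.70-fold (log2 0.76, adjusted p = 0.00308), and from day 14 to day 21 no difference was called (log2 -0.03, adjusted p = 0.9). The second-week call was lost when a trend of the differences with transcript length and GC content was removed (log2 0.28, adjusted p = 0.158). Day 21 lay above day 7 by log2 0.73 (adjusted p = 0.0234), a call lost without either day 7 library (adjusted p = 0.197 and 0.108) or when the first day 21 library was left out (log2 0.44, adjusted p = 0.16), and with no filter on low values (adjusted p = 0.0673).

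Mmp2, gelatinase A, degrades denatured collagen and basement membrane collagen. Its libraries held 10335 and 11394 normalized counts on day 0, 18925 and 20447 on day 7, 11454 and 9869 on day 14 and 18253 and 24406 on day 21. The levels thus alternated: both libraries of days 7 and 21 were above all 4 of days 0 and 14, and days 0 and 14 overlapped. Mmp2 rose 1.81-fold in the first week (log2 0.86 ± 0.14 SE, adjusted p = 0.000212), fell in the second (log2 -0.89, adjusted p = 0.000298) and rose 2.00-fold in the third (log2 0.99, adjusted p = 0.000566). At day 21 the mean was 1.96-fold that of day 0 (adjusted p = 7.27e-05), while day 14 differed from day 0 by log2 -0.03 (adjusted p = 0.857).

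Mmp14, the membrane-bound activator of Mmp2, had 9798 and 8947 normalized counts on day 0, 8186 and 9044 on day 7, 4501 and 3763 on day 14 and 6591 and 8277 on day 21. The day 14 libraries were the 2 lowest, and those of days 0, 7 and 21 ran into each other except that day 21 stayed below day 0. No first-week difference was called (log2 -0.12 ± 0.13 SE, adjusted p = 0.439). In the second week Mmp14 fell 2.08-fold (log2 -1.06, adjusted p = 6.53e-05), and in the third it rose 1.80-fold (log2 0.84, adjusted p = 0.000831). The fall at day 21 against day 0 was small (log2 -0.34, adjusted p = 0.0348), and its call was lost with no filter on low values (adjusted p = 0.0586) and in 5 of the 8 fits that each left out 1 library. These were the fits without either library of day 0 or day 7 and without the first of day 21, the last at log2 -0.18 (adjusted p = 0.277). Mmp2 and Mmp14 were thus both called lower in the second week and higher in the third. In the first week Mmp2 was called and Mmp14 was not, and the difference between the 2 genes was not tested.

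Mmp19, a secreted MMP that cuts basement membrane proteins, had differences of the same sign as Mmp2 in each week. It had 1996 and 1880.1 normalized counts on day 0, 2652 and 2636 on day 7, 2160.2 and 1989 on day 14 and 2995 and 2913 on day 21. The libraries of days 7 and 21 stood above those of days 0 and 14, which overlapped. It rose 1.36-fold in the first week (log2 0.45 ± 0.09 SE, adjusted p = 0.00101), fell 1.27-fold in the second (log2 -0.35, adjusted p = 0.00598) and rose 1.42-fold in the third (log2 0.51, adjusted p = 0.00179). Leaving out the first day 7 library ended the second-week call (log2 -0.35, adjusted p = 0.0536). Of the 3533 exon bases of Mmp19, 1001 are also exon of genes on the opposite strand (Gm47093 and Tmem198b), and since the strand setting of the counting is not given, reads there cannot be assigned.

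Mmp11, stromelysin-3, is activated inside the cell by furin-type proteases and has little activity on classical matrix proteins. Its levels were 390.1 and 394.8 normalized counts on day 0, 466 and 452 on day 7, 538 and 520.1 on day 14 and 423 and 664 on day 21. All 6 later libraries were above both of day 0, and the day 21 pair spanned days 7 and 14. Of the 2778 exon bases of Mmp11, 155 are also exon of Chchd10 on the opposite strand, and reads there cannot be assigned. No weekly step was called (log2 0.22, 0.20 and 0, adjusted p = 0.273, 0.324 and 0.988). Day 14 and day 21 were each above day 0 by log2 0.43 (adjusted p = 0.0348 and 0.0398), and each of these calls was lost with no filter on low values (adjusted p = 0.0557 and 0.064) and in 5 of the 8 fits without 1 library. For day 14 these left out either day 0 library, the second of day 7 or either of day 14, and for day 21 either library of day 0 or day 7 or the second of day 21. Without the second day 21 library the day 21 difference was log2 0.11 (adjusted p = 0.471), and with the length and GC trend removed the day 14 difference was log2 0.29 (adjusted p = 0.12).

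Mmp13, the main interstitial collagenase of mice and a gene of hypertrophic cartilage and bone-forming cells, was close to undetected. It had 4 and 0 reads at day 0, 7 and 6 on day 7, 11 and 4 on day 14 and 5 and 3 on day 21. No library exceeded 10.02 normalized counts, day 0 overlapped day 21, and day 14 overlapped days 7 and 21. The 7 osteoblast markers, of which Sp7 and Ibsp were at 0, summed to between 182 and 327 over all libraries. Most of this was Runx2, with means of 284, 238, 190 and 228 on days 0, 7, 14 and 21. Mmp13 was set against day 0 as reads pooled over both libraries of a time, divided by their summed size factors. The ratio was 2.96 at day 7 (95% exact interval 0.914 to 12.5), 3.88 at day 14 (1.24 to 16.1) and 2.06 at day 21 (0.551 to 9.34). The intervals cover counting error only.

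Among the inhibitors, Timp1 and Timp3 were lower at every later time than at day 0, Timp2 was higher, and Timp4 had reads at the later times only. Timp1 is an inducible inhibitor that blocks most soluble MMPs. Its libraries held 24003 and 27291 normalized counts on day 0, 7340.2 and 7829 on day 7, 13918 and 15359 on day 14 and 17174 and 14157 on day 21. The day 7 libraries were the 2 lowest by a wide gap, days 14 and 21 overlapped, and day 0 was above all others. The mean fell 3.38-fold in the first week (log2 -1.76 ± 0.12 SE, adjusted p = 1.37e-07) and rose 1.93-fold in the second (log2 0.95, adjusted p = 9.09e-05). The third-week difference was log2 0.09 (adjusted p = 0.581), and day 21 remained below day 0 by log2 -0.71 (adjusted p = 0.000253) and above day 7 by log2 1.04 (adjusted p = 0.000268). Timp1 has the shortest transcript of the members, 888 exon bases. With the length and GC trend removed, its second-week rise was log2 0.27 (adjusted p = 0.0311), its third-week difference became a rise of log2 0.52 (adjusted p = 0.00263) and day 14 lay below day 0 by log2 -1.49 in place of -0.81, so more of its rise fell in the third week under this choice, while the first-week fall stayed at log2 -1.76.

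Timp2, the partner of Mmp14 in activating Mmp2, had 31629 and 30887 normalized counts on day 0, 58928 and 59887 on day 7, 45879 and 40999 on day 14 and 49416 and 56161 on day 21. The day 0 libraries were lowest and those of day 7 highest, and no libraries of different times overlapped. It rose 1.90-fold in the first week (log2 0.93 ± 0.12 SE, adjusted p = 4.19e-05) and fell 1.37-fold in the second (log2 -0.45, adjusted p = 0.00838). The third-week difference of log2 0.28 was not called (adjusted p = 0.0941; DESeq2 adjusted p = 0.0355), and day 21 was 1.69-fold above day 0 (log2 0.75, adjusted p = 0.000194). The second-week call was lost without either day 7 library (adjusted p = 0.0569 and 0.069) and with the length and GC trend removed (log2 -0.27, adjusted p = 0.0616).

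Timp3, the inhibitor held in the matrix, had 83629 and 82614 normalized counts on day 0, 33191 and 30665 on day 7, 19037 and 14369.8 on day 14 and 26255 and 30081 on day 21. Both day 0 libraries were far above the rest, both of day 14 were the lowest, and day 21 lay just under day 7. The mean fell 2.60-fold in the first week (log2 -1.38 ± 0.14 SE, adjusted p = 4.75e-06) and another 1.91-fold in the second (log2 -0.95, adjusted p = 0.000229), then rose 1.69-fold in the third (log2 0.76, adjusted p = 0.00241). Day 21 was still 2.95-fold below day 0 (log2 -1.56, adjusted p = 1.22e-06) and no difference from day 7 was called (log2 -0.18, adjusted p = 0.457). Of its 8144 exon bases, 1733 are also exon of Syn3 on the opposite strand. In bulk RNA of this kind, fewer cells of a type and less RNA per cell cannot be told apart.

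Timp4, the inhibitor known for its high level in whole heart, had 0 reads in both day 0 libraries, 18 and 18 on day 7, 78 and 76 on day 14 and 32 and 44 on day 21. In normalized counts these were 16.4 and 16.1, 71.1 and 88.8, and 34.2 and 42.8, so the 4 times did not overlap and day 14 was highest. Against a floor of 3 reads over both day 0 libraries, the mean was at least 10.9-fold higher at day 7 (adjusted p = 6.7e-07), at least 53.9-fold at day 14 (adjusted p = 8.19e-09) and at least 25.9-fold at day 21 (adjusted p = 4.84e-08). It rose 4.93-fold in the second week (log2 2.22 ± 0.34 SE, adjusted p = 0.000246) and fell 2.08-fold in the third (log2 -1.04, adjusted p = 0.0322). The third-week call was lost without any 1 of the libraries of days 7, 14 and 21 (up to adjusted p = 0.212 without the second of day 14). The call at day 21 against day 7 (log2 1.19, adjusted p = 0.0479) was lost in most alternatives, among them DESeq2 (log2 1.25, adjusted p = 0.0626) and the fits without either library of day 7 or day 21 or the second of day 14. Even at day 14 its level per kilobase of exon was 13.6, beside 16485 for Timp1. Of the 5894 exon bases of Timp4, 90 are also exon of Syn2 on the opposite strand, and reads there cannot be assigned.

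**Figure D2:**
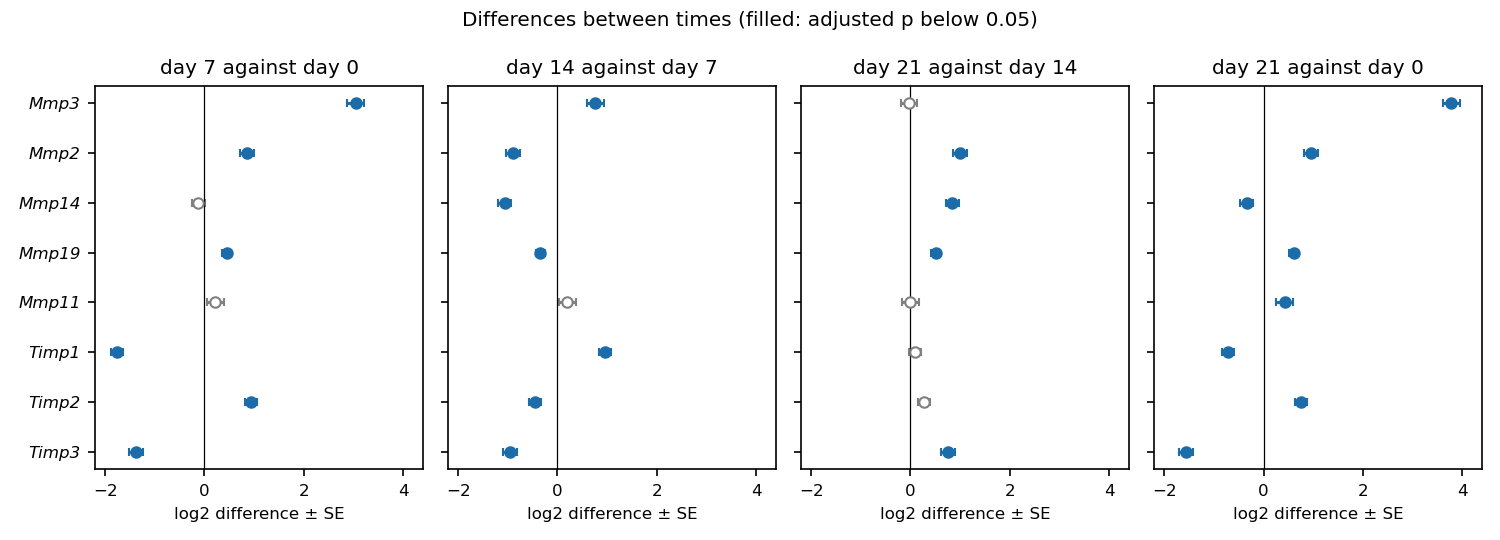
Log2 difference between times (horizontal axis, bars are ± SE of the limma fit) for 8 members in 4 comparisons; filled points have adjusted p below 0.05. Mmp13, which was not tested, and Timp4, which had 0 reads at day 0, are left out. Mmp2, Mmp14 and Mmp19 lie below 0 in the second week and above 0 in the third, while Mmp3 lies at 3.78 for day 21 against day 0.

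Levels of different genes were compared as normalized counts per kilobase of annotated exon. At day 0 the order was Timp1 (28882 ± 2619 SD, n = 2), Timp3 (10206 ± 88.1), Timp2 (8023 ± 135), Mmp3 (3237 ± 409), Mmp2 (3223 ± 222), Mmp14 (1573 ± 101), Mmp19 (549 ± 23.2) and Mmp11 (141 ± 1.20), with Mmp13 and Timp4 near or at 0. Only Mmp3 with Mmp2, and Mmp13 with Timp4, had overlapping libraries among neighbours in this order. From day 7 on Mmp3 was first of the 10 (26774 ± 2075 at day 7, 45382 ± 2230 at day 14 and 45252 ± 12845 at day 21), and no neighbours overlapped. Timp2 was second at day 7 (15248 ± 174) ahead of Timp1 (8541 ± 390), and Timp1 was second at days 14 (16485 ± 1147) and 21 (17641 ± 2402) ahead of Timp2 (11149.6 ± 886 and 13549 ± 1224). Timp3 came after Mmp2 from day 7 on by this length. The lengths are those of GENCODE M21 gene models, and 34 of the 40 ranks stayed the same when the longest transcript was used in place of all exons. Timp3 then had the higher mean of these 2 at day 7 (6762 against 6396) and at day 14 (3537 against 3464).

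Within the TIMP family the make-up of the transcript pool changed. Timp1 was 61.2% of the summed TIMP level per kilobase at day 0, 30.8% at day 7, 55.5% at day 14 and 50.8% at day 21. The share of Timp2 ran against it, at 17.1%, 55.0%, 37.5% and 39.2%. Timp3 went from 21.7% to 14.2%, 6.90% and 9.99%, and Timp4 never passed 0.0457%. The Timp3 share depends on the gene model: with the longest transcript it was 32.0%, 21.6%, 11.1% and 15.7%. Within the 6 MMP genes, Mmp3 grew from 37.0% to 76.5%, 90.7% and 83.4%, while Mmp2 went from 36.9% to 16.7%, 6.31% and 12.3% and Mmp14 from 18.1% to 4.13%, 1.38% and 2.41%. With the longest transcript the Mmp14 shares were 27.9%, 7.23%, 2.50% and 4.28%.

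The summed MMP level per kilobase was 8365 and 9081 on day 0, 33215 and 36735 on day 7, 51920.2 and 48116 on day 14 and 61857 and 45863 on day 21. The summed TIMP level was 45417 and 48805 on day 0, 27469.5 and 27956 on day 7, 29799 and 29598 on day 14 and 35253 and 34059 on day 21. Every later library thus had a higher MMP sum and a lower TIMP sum than either day 0 library. The ratio of the sums was 0.184 and 0.186 on day 0, 1.21 and 1.31 on day 7, 1.74 and 1.63 on day 14 and 1.75 and 1.35 on day 21. Without Mmp3 the ratio was 0.119 and 0.114, then 0.288 and 0.304, 0.167 and 0.146, and 0.213 and 0.285, lower at day 14 than at days 7 and 21. These are sums of transcript levels, given without a test, and they measure neither protein nor enzyme activity.

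**Figure D3:**
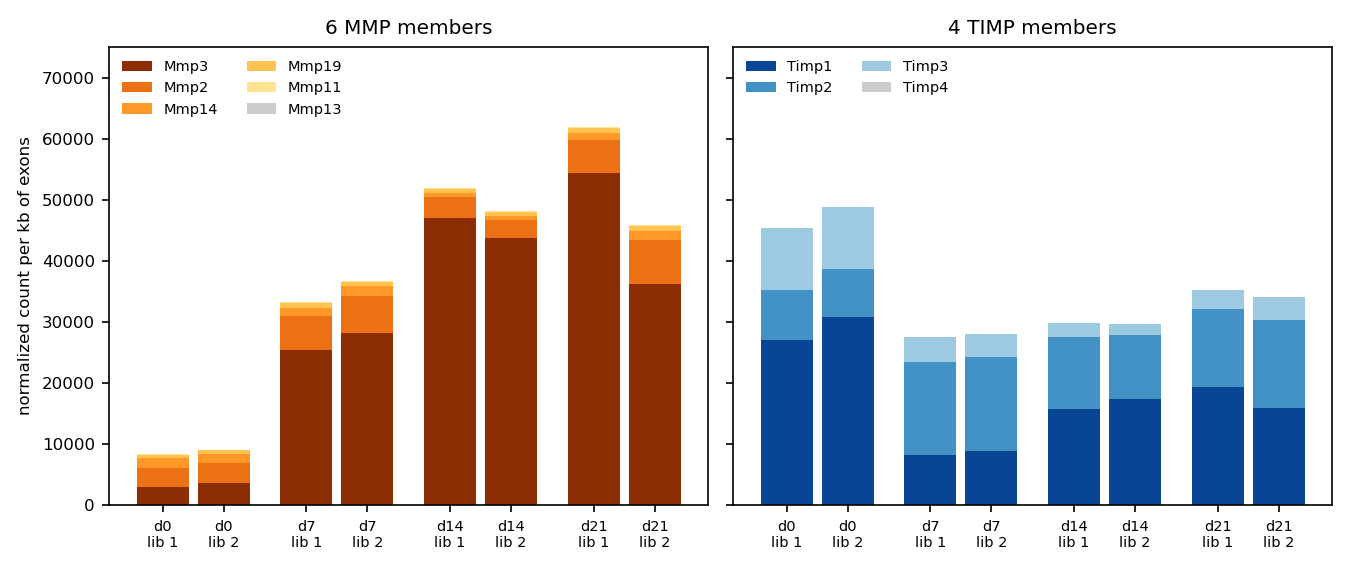
Normalized count per kilobase of exon, stacked by gene in each of the 8 libraries, for the 6 MMP members (left) and the 4 TIMP members (right) on a shared axis from 0. The MMP stack grows from at most 9081 at day 0 to at least 45863 at days 14 and 21 and is mostly Mmp3, and the TIMP stack is highest at day 0.

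The other 17 MMP genes were read for comparison, and 12 of them were tested. At day 21 against day 0, 7 were higher and 3 lower, where 29.8% of all tested genes were higher and 29.5% lower. Their median log2 difference was 1.06, beside 0 over all tested genes. Mmp9 and Mmp12 were below 10 normalized counts in both day 0 libraries, and Mmp1b was below 10 in all 6 later ones. These 3 passed the filter through the times where they were high and so had to differ, and the counts and median that include them are given as a description. At day 7 against day 0 the 12 tested genes were 5 higher and 3 lower, beside 27.5% and 27.9% of all tested genes. At day 14 against day 7 they were 4 and 3, beside 25.0% and 27.0%. At day 21 against day 14, 4 were higher, beside 20.2%. Mmp10, stromelysin-2, had means of 249.6, 2020.2, 2794 and 3173 normalized counts on days 0, 7, 14 and 21, a 12.7-fold rise at day 21 (log2 3.65 ± 0.18 SE, adjusted p = 6.23e-09). Mmp16, a membrane-bound MMP, went the other way, from 1902 to 318, 229 and 262 normalized counts, a fall of 7.26-fold at day 21 (log2 -2.86, adjusted p = 1.83e-09). Mmp23 had means of 1748, 2723, 5460.0 and 5147 and was 2.94-fold higher at day 21 (log2 1.56, adjusted p = 1.81e-08).

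Mmp9, gelatinase B, came late. It had 3.19 and 1.31 normalized counts on day 0 and 5.47 and 2.67 on day 7, then 98.4 and 129.7 on day 14 and 61.9 and 227.6 on day 21. Both pairs of early libraries were far below all 4 later ones, and the day 21 libraries spanned those of day 14. The second-week rise was 28.0-fold (log2 4.55 ± 0.53 SE, adjusted p = 6.07e-05). Both day 7 libraries were also below 10, so Mmp9 passed the filter through days 14 and 21 alone and had to differ from day 7. Its second-week call is no support for the count given above. The other called rises at day 21 against day 0 were Mmp8 (8.44-fold, adjusted p = 3.34e-07), Mmp27 (4.56-fold, adjusted p = 1.93e-06), Mmp12 (3.13-fold, adjusted p = 0.000812) and Mmp28 (1.51-fold, adjusted p = 0.0336). The remaining falls were Mmp17 (1.62-fold, adjusted p = 0.0139) and Mmp1b. For Mmp1b, reads were pooled over both libraries of a time and divided by their summed size factors. The day 21 value was then 0.0381 of that of day 0 (95% exact interval 0.000931 to 0.231, counting error only). Mmp1a and Mmp1b are close copies of each other, and the sources used here do not say how reads that match both were counted.

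Mmp3 and Mmp13 lie in a run of 10 MMP genes on chromosome 9, with no other protein-coding gene between its ends in RefSeq. In genome order these are Mmp13, Mmp12, Mmp1b, Mmp3, Mmp1a, Mmp10, Mmp8, Mmp27, Mmp20 and Mmp7, and 6 of them were tested. Mmp12, Mmp3, Mmp10, Mmp8 and Mmp27 were all called higher at day 21 than at day 0, and Mmp1b was called lower, where the filter fixed the difference of Mmp12 and Mmp1b as said above. The courses were not the same: Mmp3 and Mmp10 were near their top by day 14, Mmp8 rose in the third week (from 95.2 to 263 normalized counts, adjusted p = 0.00147), and Mmp12 rose in the first week and had 23.5 at day 21 beside 23.9 at day 7. Mmp20 had 0 reads in the 8 libraries, Mmp7 had 1 and Mmp1a had 7.

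**Figure D4:**
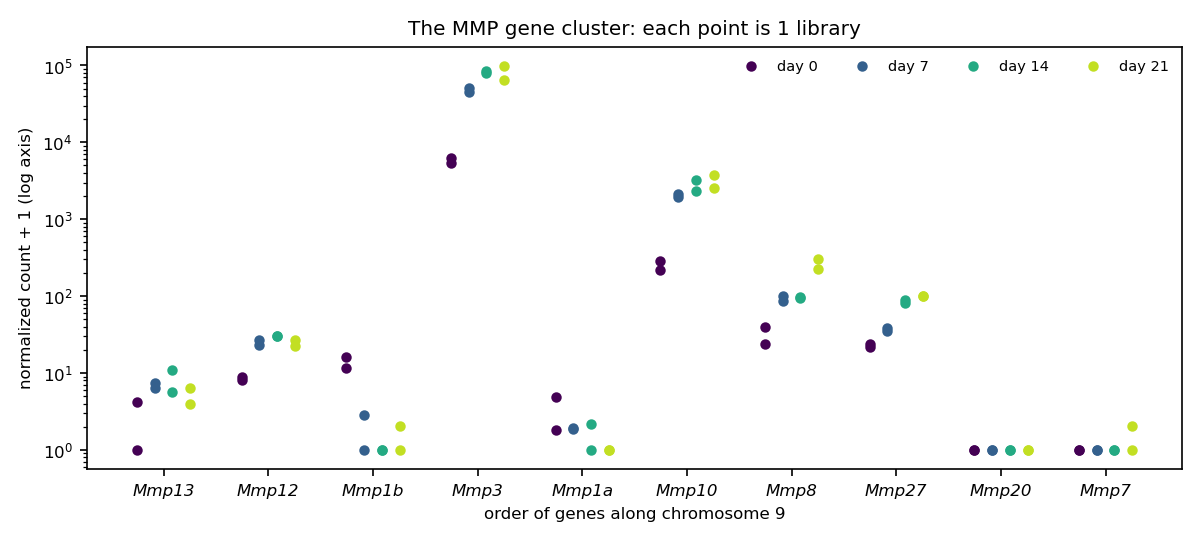
Normalized count plus 1 (log axis) of the 10 MMP genes of the chromosome 9 cluster in genome order; each point is 1 library, coloured by day. The points of Mmp3, Mmp10, Mmp8 and Mmp27 at day 21 lie above those of day 0, those of Mmp1b lie below, and Mmp20 has 0 reads.

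Genes whose course over the 8 libraries was nearest to that of each member, as distance between log2 values after removal of each gene's mean, were listed among tested genes with a mean of at least 50. For Mmp3 the nearest was Mmp10 (distance 0.46, r = 0.996), followed by Srgn, a proteoglycan core protein (0.48), and Fth1, the ferritin heavy chain (0.49). For Mmp2 it was Pkd1 (0.19), for Mmp14 Dock1 (0.15), and for Mmp11 Wsb1 (0.27). For Mmp19 the 3 nearest were Scamp1 (0.10), Lamp1 (0.13) and Acp2 (0.16), of which Lamp1 and Acp2 encode lysosomal proteins. Among the inhibitors, Timp1 was nearest to Hist1h4i (0.34) and the phosphate transporter gene Slc20a1 (0.48), and Timp2 to Peg13 (0.14) and Serpine2 (0.14), itself a protease inhibitor. Timp3 was nearest to the amino acid transporter gene Slc7a1 (0.24) and Timp4 to Inmt (0.56). These are descriptions over 8 libraries that share their 4 times.

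MMP activity also depends on proteins that activate, hold or clear the enzymes. Of 22 such genes 20 were tested, and at day 21 against day 0 they were 7 higher and 7 lower (median log2 -0.11). Of all tested genes, 29.8% were higher and 29.5% lower. The inhibitor A2m, alpha-2-macroglobulin, which traps proteases of all classes, rose from 69.6 to 1027 normalized counts in the first week and was 15.9-fold above day 0 at day 21 (log2 3.99 ± 0.15 SE, adjusted p = 5.44e-10). Plaur, the urokinase receptor, fell from 240.8 to 45.5 in the first week (log2 -2.39, adjusted p = 6.13e-07). By week the list had 8 higher and 5 lower in the first, 2 and 15 in the second and 12 and 1 in the third, beside 27.5% and 27.9%, 25.0% and 27.0%, and 20.2% and 14.3% of all tested genes.

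The other metalloproteinases that TIMPs can block, 14 tested ADAM and ADAMTS genes, were 7 higher and 3 lower in the first week, 2 and 11 in the second and 11 and 1 in the third. The shares of all tested genes called higher and lower were 27.5% and 27.9%, 25.0% and 27.0%, and 20.2% and 14.3%. The medians of the list were log2 0.15, -0.75 and 0.70. Adam33 had means of 0, 4.92, 21.1 and 4.47, so it passed the filter through day 14 alone and had to differ there. It was counted as higher in the first and second weeks and lower in the third. Its second-week and third-week calls are no support for these counts. Adam8 had means of 48.1 at day 0 and 575 on day 21 (12.0-fold, adjusted p = 4.21e-07), and Adam12, a sheddase of growth factor ligands, went from 1886 to 329.7 (5.72-fold lower, adjusted p = 7.37e-09). Of 20 matrix substrates, 13 were lower and 4 higher at day 21 against day 0, where 29.5% of all tested genes were lower and 29.8% higher. The collagen gene Col1a1 was 4.62-fold lower (adjusted p = 3.89e-07) and the proteoglycan gene Dcn, decorin, 5.49-fold higher (adjusted p = 2.03e-08). By week the substrates were 6 higher and 11 lower, then 2 and 15, then 15 and 1, with medians of log2 -0.66, -1.45 and 1.10. Acan had means of 51.4, 4.04, 5.40 and 10.1, so it could enter the test through day 0. Its calls as lower than at day 0 are no support for the counts of substrates. In the second week each doubling of a gene's transcript length went with a change of -0.368 in the log2 difference, and in the third week with one of 0.24; the part of this in the weekly counts of these lists was not tested.

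Of 14 transcription factors known at MMP promoters, 5 were higher and 5 lower at day 21 against day 0. The shares of all tested genes were 29.8% and 29.5%. The list had 5 higher and 5 lower in the first week, beside 27.5% and 27.9% of all tested genes. In the second week it had 1 and 8, beside 25.0% and 27.0%. In the third it had 10 and 0, beside 20.2% and 14.3%. The AP-1 subunit genes Fos and Fosb had means of 567 and 38.0 on day 0, 5008 and 234 on day 7, 4570.0 and 257 on day 14 and 25760.0 and 4814 on day 21. Junb went from 2275 to 6196, 9055 and 18491. In the third week Fos rose 5.64-fold (adjusted p = 5.4e-06).

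Markers of other cell types were read beside these results. All 14 macrophage markers in the table were called higher than at day 0 at days 7, 14 and 21, beside 27.5%, 35.2% and 29.8% of all tested genes. Ptprc, Fcgr1, Tyrobp and Mrc1 had day 0 means below 10 (2.5, 1.19, 8.95 and 9.89). They could pass the filter only with later libraries, so their calls are no support for this count. None of the 14 was at 0 at any time. The summed level of the 14 was 1279 to 1389.8 at day 0 and 10475 to 12921 at day 7. It was 21640.3 to 40547 at day 14 and 21439 to 21924 at day 21. This course ran with those of Mmp3, Mmp10 and Mmp12 in the first week and with that of Mmp9 in the second, and its part in them was not tested. Lyz2, a lysozyme gene of macrophages, had means of 681, 8246, 24332 and 15974. Of the 5 neutrophil markers, the summed level never exceeded 8.20 and S100a9 was at 0 in every library, in the same libraries in which Mmp8, also called neutrophil collagenase, reached 303.3. Osteoclast markers summed to 984 to 1000 at day 0 and 1627 to 1788 at day 7. They summed to 2648 to 2658 at day 14 and 2280.3 to 2340.2 at day 21. Most of this was Ctsk, with means of 953, 1616.5, 2379.2 and 2068.7. The sum stands beside the late course of Mmp9, a gene of osteoclasts, and the part of osteoclasts in that course was not tested. The 8 heart muscle markers summed to 1138 to 1212 at day 0, 11099 to 11754 at day 7, 22460.3 to 28811 at day 14 and 5869 to 10604 at day 21. Nearly all of this was Tnnt2, cardiac troponin T, with a mean of 25595 at day 14, while Myh6 stayed at 0 and Myh7 was at 0 up to day 14. The 5 mesothelial markers summed to 1169 to 1277 at day 0, 846 to 856 at day 7, 1595 to 1671 at day 14 and 430 to 957 at day 21. Among them Msln had means of 19.4, 402, 1179 and 460, while Krt19, Lrrn4 and Upk3b were lower at every later time than at day 0. Timp4 was also highest at day 14, and the part of heart muscle or mesothelial cells in it was not tested.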

How the data were processed

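RNA-seq of 8 libraries of mouse cardiac fibroblasts was used. Per the submitters' processing notes, TopHat2 2.0.11, HTSeq 0.6.1 and DESeq were used with the mm9 genome; annotation and strand setting: not given in the sources used here. Per the labels' protocols, total RNA was extracted with the RNeasy Plus Mini Kit and libraries followed standard Illumina steps. Each deposited value is a signal, the reads of a gene over 1 size factor per library: 100% of values above 0 were whole reads within 0.01. Differences were fitted with limma 3.58.1 (trend, R 4.3.3) on log2(value + 1) over all 8 libraries. The fit had 4 residual and 8.16 prior degrees of freedom and 6 comparisons. Fold changes are ratios of mean values, except that ratios with an exact interval use reads pooled over both libraries, divided by their summed size factors. Log2 differences are on the log2(value + 1) scale, which understates changes of low genes. The limma fit was also run on simulated counts in which few genes differed between times. In these data many genes differed, so that run does not gauge the error of the calls here. Alternatives used edgeR 4.0.16, DESeq2 1.42.0 on recovered reads, other pseudocounts, filters and scalings, a replicate block, removal of a length and GC trend, and leaving out each library. Lengths came from GENCODE M21 (GRCm38), matched for 98.5% of genes, and since this build differs from mm9 the deposited values are not placed on coordinates; only the RefSeq promoter windows have them, in GRCm38.p6. Every member and every other MMP gene is named, and from each other list up to 3 called genes with the largest difference at day 21 against day 0 and the 2 with the highest mean; 1 gene is not reported here. For likeness, the 3 nearest genes per member were listed, predicted gene models left out. The members and lists were chosen with earlier results of these data known.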

Additional observations from a re-analysis of the deposited data

How the results depend on the processing

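No called difference of a member changed sign under any alternative run. Over 9 tested members, 6 comparisons and 19 alternatives, 969 values stayed on the same side of the threshold (some differences that were not called, near 0, changed sign), 51 lost the call and 6 gained one. The count of members called at day 21 against day 7 was 3, and it was 1 with no filter on low values and 1 to 3 when 1 library was left out, with 1 without either day 7 library; such a fit assumes that the lone library varies like the other times. Without 1 library the counts were 7 in every fit at day 7 against day 0, 6 to 8 at day 14 against day 7, 4 to 5 at day 21 against day 14, 6 to 7 at day 14 against day 0 and 7 to 9 at day 21 against day 0. Libraries with the same replicate number did not deviate together (correlations of deviations from -0.036 to 0.074), and the main fit used no pairing. A shared source with a weak effect could look the same, and the labels leave unsaid whether the numbers pair the samples. With the replicate block the counts were 7, 8, 5, 7, 8 and 2 in the order day 7 against day 0, day 14 against day 7, day 21 against day 14, day 14 against day 0, day 21 against day 0 and day 21 against day 7. The block ended the calls of Mmp14 at day 21 against day 0 (adjusted p = 0.0513) and of Timp4 at day 21 against day 7 (adjusted p = 0.0626). TMM scaling moved the median of all genes to at most 0.035 on the log2 scale. Depth limits Mmp13 and the early Timp4 values, where few reads were counted, and 2 libraries a time limit the small differences of Mmp11 and Mmp14.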
